A study of Mus musculus with 27 samples.

Results

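Tg, Tshr and Lrp2 are 3 genes of thyroid follicular cells whose RNA was higher after treatment with a RAF and MEK inhibitor in cultured mouse thyroid tumor lines. They are 3 of 33924 gene symbols in a table of raw counts and were selected on the CKI minus vehicle change in these libraries. That change is therefore described here without a test. All 3 passed the filter on low counts in both fits, which kept 15634 genes over 24 tumor line libraries and 16821 genes over all 27 libraries. At least 10 counts were found for Tg in 22 of the 24 tumor line libraries, for Lrp2 in 14 and for Tshr in 10, and among the 12 vehicle libraries in 11, 3 and 2.

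The 27 libraries form 9 groups of 3. The tumor lines are labelled Braf(V600E) + Arid1a KO, Braf(V600E) + Arid2 KO, Braf(V600E) + Smarcb1 KO or Braf(V600E) alone, so every tumor line carries the activated kinase, and the KO genes code for parts of the SWI/SNF chromatin remodeler. Each of the 12 lines was sequenced after CH5126766 (CKI) at 300 nM for 8 days and after vehicle (Trappsol). Bovine TSH is mentioned in a way that does not settle whether the vehicle cells received it, so an effect of CKI and an effect of added TSH cannot be told apart. The remaining 3 libraries are marked wildtype and untreated, although their source is also given as a tumor cell line. The lines were grown from dissected and digested tumors, and the drivers of the alleles are not stated there. The replicates are separate lines, so the p-values rest on the spread between lines. Except where the line is a block, the fit treats the CKI and vehicle libraries of a line as independent.

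Thyroid follicular cells secrete thyroglobulin, the product of Tg, into the follicle lumen, where its tyrosines are iodinated to build thyroid hormone. TSH from the pituitary acts on its receptor, encoded by Tshr, which couples to Gs and raises cyclic AMP. Lrp2 encodes megalin, a very large endocytic receptor of the LDL receptor family that binds thyroglobulin at the apical surface of thyroid cells and is best known from the kidney proximal tubule. Signalling from mutant BRAF through MEK and ERK is known to turn down genes of the differentiated thyroid cell.

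A RefSeq promoter entry was matched for 1 of the 3 genes, Lrp2. The 250 bases before its annotated start in GRCm38.p6 are at chr2:69586030-69586279 on the minus strand. They are shown because no entry was matched for Tg or Tshr. The sequence is given 5′ to 3′ in gene orientation, and capitals mark the GC box GGGCGG, a motif bound by Sp1 family factors.
Lrp2 upstream: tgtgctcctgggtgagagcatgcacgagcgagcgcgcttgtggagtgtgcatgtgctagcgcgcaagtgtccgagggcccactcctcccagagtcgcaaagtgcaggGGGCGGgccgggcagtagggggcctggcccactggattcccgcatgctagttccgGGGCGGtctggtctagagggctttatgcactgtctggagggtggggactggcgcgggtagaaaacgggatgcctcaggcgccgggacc
Both strands were searched. GGGCGG was found 2 times, without overlap, and 32.7% of 32851 RefSeq promoter windows hold it. The cyclic AMP response element (TGACGTCA, held by 1.55% of windows) was not found, nor was its shorter form (TGACG, 17.8%). The CCAAT box, held by 33.8%, and the TATA box (TATAAA), held by 12.4%, were not found either.

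Library totals lay between 18417255 and 27257703 counts in 25 libraries. Among Smarcb1 KO lines under CKI, BS53958 and BS53965 were shallower, with 11684983 and 2884130 counts. A count of 3 in those 2 libraries equals 0.247 and 0.891 CPM (counts relative to a library's TMM-scaled size), and these floors cover counting error only. Smarcb1 itself was between 0.123 and 3.27 CPM under CKI and between 0.0475 and 1.16 CPM in vehicle in Smarcb1 KO lines, against 68.3 to 93.9 CPM under CKI and 67.9 to 85.1 CPM in vehicle in Braf lines. Arid1a averaged 74.6 ± 12.4 CPM in Arid1a KO lines and 126.6 ± 11.3 CPM in Braf lines under CKI (SD, n = 3 each). Arid2 was not lower by its mean, with 128.5 ± 40.7 CPM in Arid2 KO lines and 117.5 ± 13.1 CPM in Braf lines under CKI, so gene-level counts do not check the Arid2 label.

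Tg, the hormone precursor, had 276.5, 41.9 and 242.0 CPM in Arid1a KO lines BA45198, BA47473 and BA49112 under CKI, against 17.5, 0.673 and 1.02 CPM in vehicle. In Arid2 KO lines AB51189, AB52980 and AB55694 it had 625.3, 17.5 and 77.4 CPM under CKI, against 8.01, 6.96 and 14.3 CPM in vehicle. In Braf lines B47275, B48051 and B52482 it had 270.0, 6.996 and 254.7 CPM under CKI, against 7.42, 1.65 and 1.55 CPM in vehicle. Within each of these 9 lines the CKI library was the higher one, but B48051 and AB52980 stayed far below the other lines of their genotype, and the CKI value of B48051 lay below the vehicle value of B47275. In Smarcb1 KO lines BS53736, BS53958 and BS53965, Tg had only 0.779, 7.08 and 0.891 CPM under CKI, against 0.380, 1.12 and 0.474 CPM in vehicle. The last of these CKI values rests on 3 counts. In bulk RNA, fewer cells of a type and less RNA per cell cannot be told apart.

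The change in Tg, as log2 of CPM + 0.5 under CKI minus vehicle, averaged 5.48 ± 1.70 in Arid1a KO, 3.29 ± 2.58 in Arid2 KO, 1.10 ± 0.98 in Smarcb1 KO and 4.62 ± 2.61 in Braf lines (SD, n = 3 lines each). It ran between 3.95 and 7.31 in Arid1a KO lines, between 1.27 and 6.20 in Arid2 KO lines, and between 1.80 and 6.96 in Braf lines. In Smarcb1 KO lines it was 0.54, 2.23 and 0.52. The spread among lines of a genotype was thus wide for Tg outside Smarcb1 KO, where line BS53958 alone moved by more than 1. In the fit over groups the Tg change in Smarcb1 KO was 2.22 and became 0.91 without BS53958, and that in Arid1a KO was 4.89 and became 7.37 without BA45198.

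Tshr, the TSH receptor gene, was close to the detection limit in most vehicle libraries. It had 174.7, 13.7 and 28.6 CPM in the Arid1a KO lines under CKI, in the line order above, against 1.70, 0.179 and 0.384 CPM in vehicle. In Arid2 KO lines it had 35.7, 0.134 and 16.3 CPM under CKI, against 0.0440, 0.125 and 1.46 CPM in vehicle. All 3 Arid1a KO lines responded, while Arid2 KO line AB52980 had 3 counts in each arm, at the floor. In Braf lines Tshr had 0.742, 0.416 and 51.2 CPM under CKI, against 0.230, 0.103 and 0.464 CPM in vehicle, so that 1 of 3 Braf lines, B52482, held nearly all of it. In Smarcb1 KO lines it had 0.369, 0 and 0.297 CPM under CKI, against 0.142, 0.194 and 0.0431 CPM in vehicle, which are 9, 0 and 1 counts against 3, 4 and 1. The 0 in BS53958 allows up to 0.247 CPM, and no response of Tshr was detectable at this depth.

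The change in Tshr on the same log2 scale averaged 5.25 ± 0.98 in Arid1a KO, 3.06 ± 3.02 in Arid2 KO and 2.37 ± 2.92 in Braf lines (SD, n = 3 lines each). Arid1a KO lines kept between 4.39 and 6.31, a narrow band next to Braf lines, which ran between 0.60 and 5.75. In Arid2 KO line AB51189 the CKI level was 810.1 times the vehicle level, which rests on 1 vehicle count, and the exact 95% interval of that ratio is 145.0 to 32040. In Braf line B48051 the ratio was 4.04, on 10 counts against 2, with an interval of 0.861 to 37.9. Without B52482 the fitted Tshr change of the Braf group was 1.75, against 6.03 with it. Without BS53736 the fitted Tshr change of Smarcb1 KO was -0.62, against 0.81 with it, and without BS53958 it was 1.87.

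Lrp2, the megalin gene, had 87.7, 8.25 and 22.2 CPM in the Arid1a KO lines under CKI, against 0.361, 0.0897 and 0.0853 CPM in vehicle. In Arid2 KO lines it had 49.1, 12.1 and 214.3 CPM under CKI, against 0.484, 0.208 and 4.24 CPM in vehicle. In Braf lines it had 40.4, 39.7 and 465.1 CPM under CKI, against 2.54, 0.412 and 0.413 CPM in vehicle. Lrp2 responded in every one of these 9 lines, including B48051 and AB52980 where Tshr stayed at or near the floor and Tg moved least. In Smarcb1 KO lines Lrp2 had 0.697, 1.07 and 0.891 CPM under CKI, against 0.0949, 0.242 and 0.129 CPM in vehicle. The ratio was 7.34 in BS53736 (17 counts against 2, exact 95% interval 1.74 to 65.5) and 4.41 in BS53958 (13 counts against 5, interval 1.48 to 15.8), while BS53965 had 3 counts in each arm.

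The log2 change in Lrp2 averaged 5.28 ± 1.39 in Arid1a KO, 5.10 ± 0.83 in Arid2 KO and 6.07 ± 2.67 in Braf lines (SD, n = 3 lines each). Its lowest value outside Smarcb1 KO was 3.75, in B47275, and its highest 8.995, in B52482, where the CKI level was 1127 times the vehicle level (8 vehicle counts, exact 95% interval 571.8 to 2611). In Arid1a KO lines BA47473 and BA49112, with 2 vehicle counts each, the ratios were 92.0 (interval 25.1 to 765) and 260.3 (interval 71.7 to 2155). Over the 9 lines that keep Smarcb1, the SD of the change was 1.62 for Lrp2, against 2.24 for Tg and 2.52 for Tshr. Within genotypes the order differed, with an SD of 0.98 for Tshr and 1.39 for Lrp2 in Arid1a KO, and of 2.61 for Tg and 2.67 for Lrp2 in Braf lines.

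Counted over lines, the CKI value was the higher one in 12 of 12 lines for Tg and for Lrp2 and in 11 of 12 for Tshr, although Tshr had 3 counts or fewer in both arms of AB52980 and BS53965, and so did Lrp2 in BS53965. Of the 15634 genes, 3.91% were higher under CKI in all 12 lines and 10.5% in all 9 lines that keep Smarcb1. By mean change over those 9 lines, Lrp2 ranked 12, Tg 27 and Tshr 62 from the top. These values are of the kind that chose the 3 genes, and nothing is read from the counts.

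**Figure D1:**
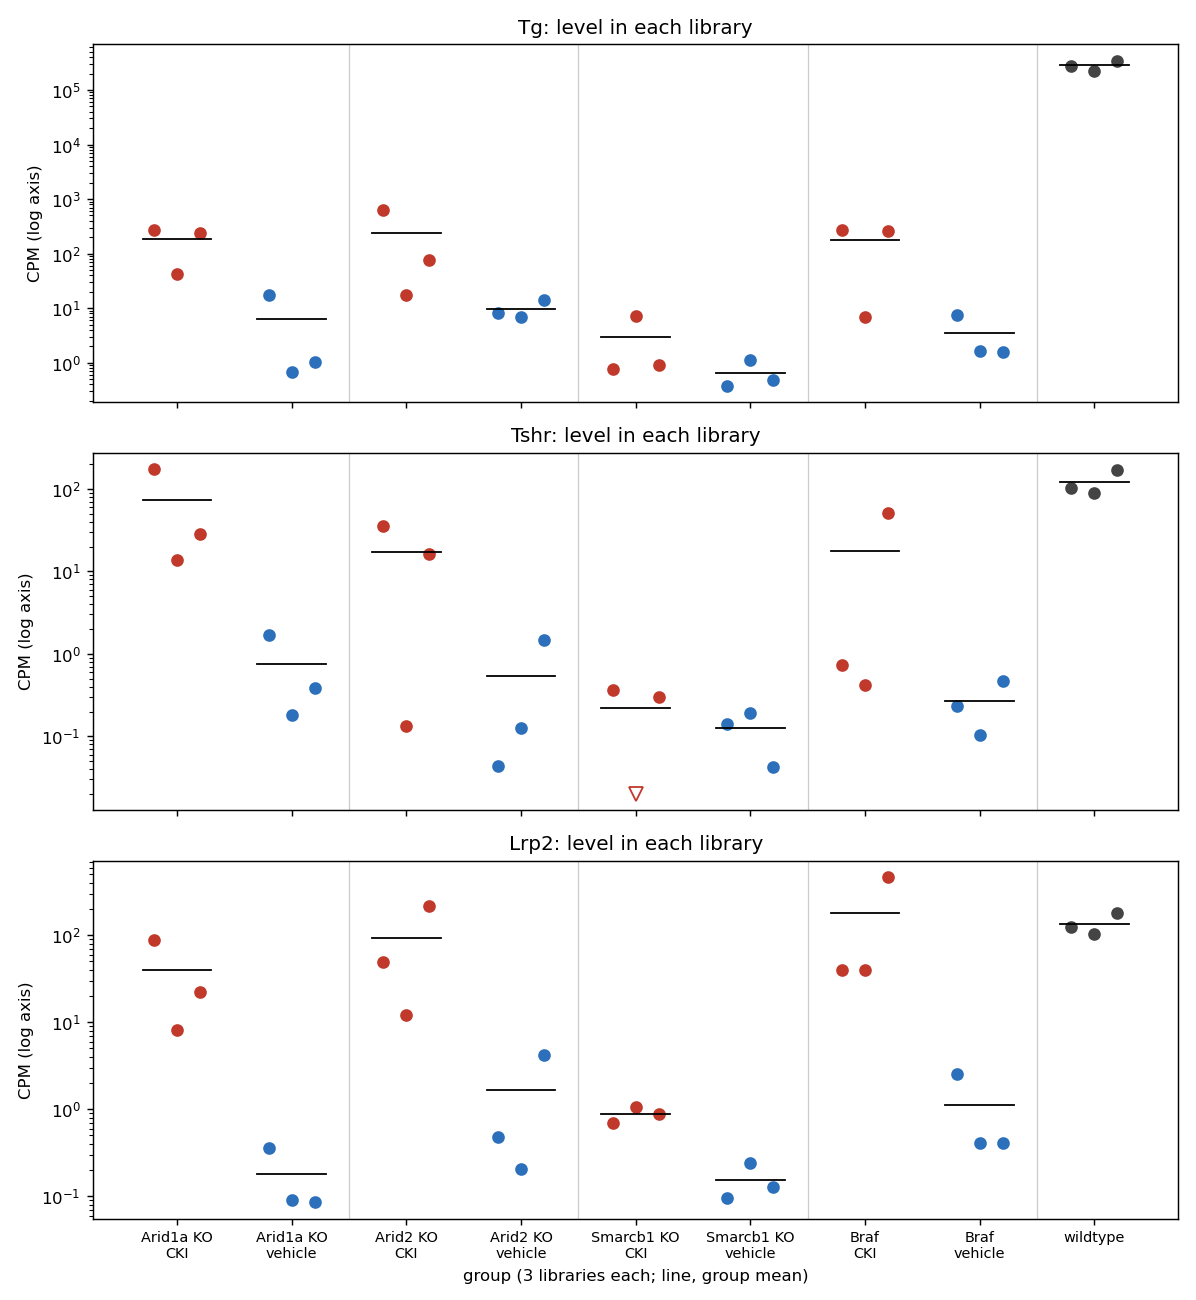
Level of Tg, Tshr and Lrp2 in each library as CPM on a log axis, with 3 libraries per group in line order, CKI in red, vehicle in blue and wildtype in grey; horizontal lines are group means and the open triangle at the lower edge marks the 0 of Tshr in BS53958. CKI libraries of Arid1a KO, Arid2 KO and Braf lines lie mostly above their vehicle libraries, while those of Smarcb1 KO lines stay at 7.08 CPM or lower for all 3 genes.

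**Figure D2:**
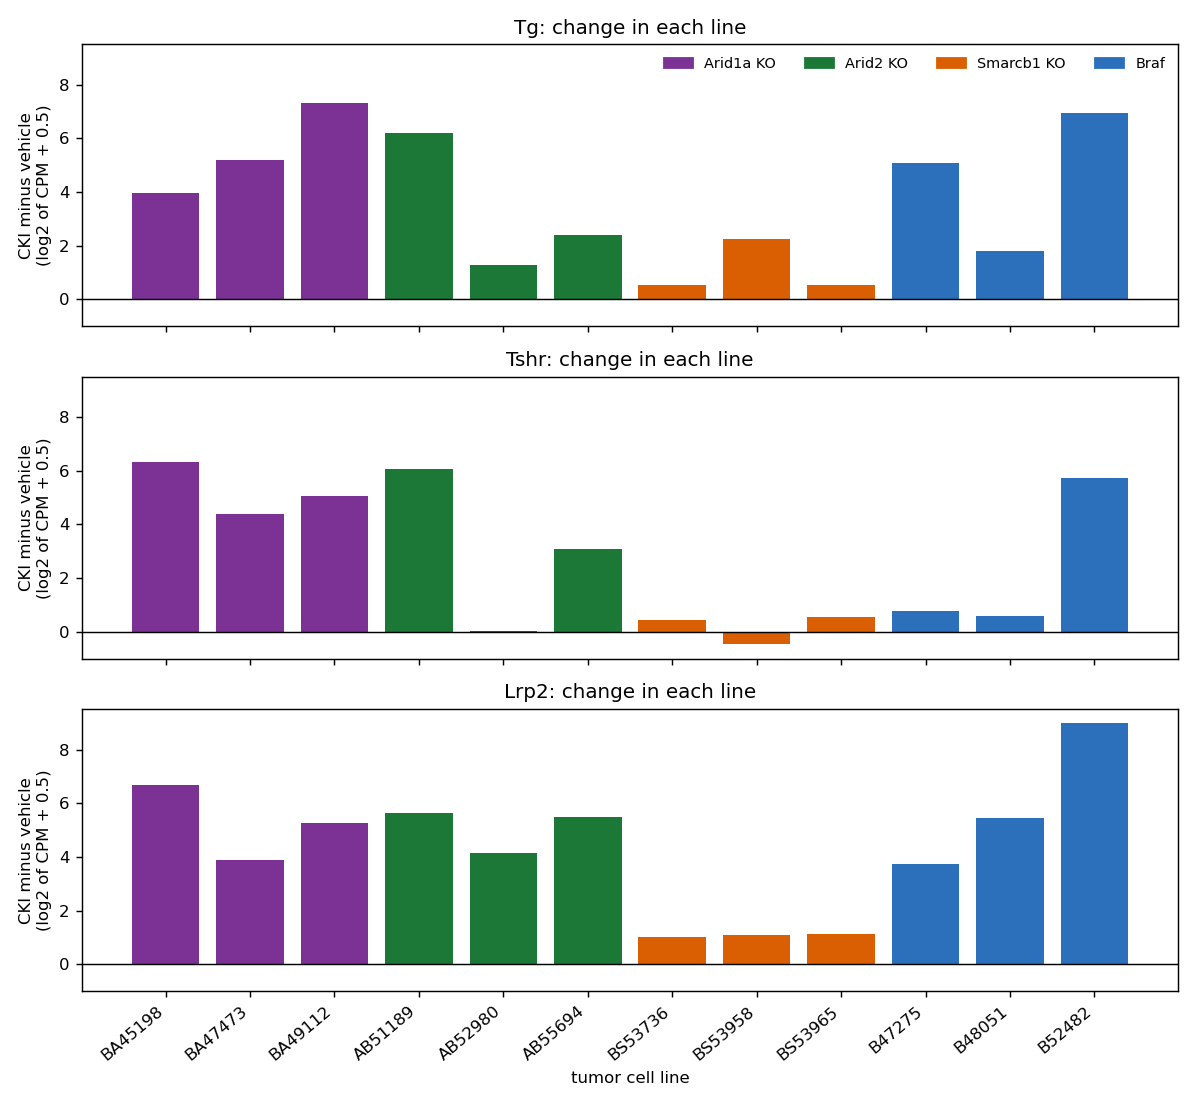
Change in each of the 12 tumor lines, as log2 of CPM + 0.5 under CKI minus vehicle, coloured by genotype. Tshr is near 0 in AB52980 and the Smarcb1 KO lines, and Lrp2 is at 3.75 or more in the 9 lines that keep Smarcb1.

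Genotypes were compared within an arm. That contrast did not choose the genes, but the same CKI libraries enter the CKI minus vehicle change that did. The adjusted p values under CKI are therefore not independent of the choice of these genes. Under CKI all 3 genes were lower in Smarcb1 KO than in Braf lines. Tg averaged 2.92 ± 3.61 CPM in Smarcb1 KO lines and 177.2 ± 147.6 CPM in Braf lines (SD, n = 3 each), a log2 difference of -5.86 ± 1.66 (SE, adjusted p = 0.0194, edgeR). Tshr averaged 0.222 ± 0.196 CPM in Smarcb1 KO lines and 17.5 ± 29.2 CPM in Braf lines, a log2 difference of -6.27 ± 2.13 (adjusted p = 0.0413). This value rests on less than those of Tg and Lrp2, since Tshr was filtered out when just these 2 groups were fitted, and passed in the fit over 24 libraries, where CKI libraries of Arid1a KO and Arid2 KO lines also hold it. Lrp2 averaged 0.886 ± 0.187 CPM in Smarcb1 KO lines and 181.7 ± 245.4 CPM in Braf lines, a log2 difference of -7.71 ± 1.60 (adjusted p = 0.00379). The background is high in this comparison, since 23.1% of the genes tested passed and 13.1% were lower. The libraries of the 2 groups did not overlap for Tshr and Lrp2, and 18.0% of genes were lower without overlap, while for Tg BS53958 (7.08 CPM) reached B48051 (6.996 CPM). For Tshr the gap is within counting error, since the 1 count in BS53965 (0.297 CPM) has an exact 95% Poisson upper limit of 1.66 CPM, above B47275 (0.742 CPM) and B48051 (0.416 CPM).

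These calls did not rest equally on all lines. Lrp2 stayed called with any 1 line left out, with differences between -8.19 and -5.54. Leaving out both shallow lines, BS53958 and BS53965, keeps BS53736 as the sole Smarcb1 KO line, so only the difference is given. For Lrp2 it was -8.04. Tg was no longer called with just these 2 groups in the fit (-5.84, adjusted p = 0.0939), without BS53736 (-5.33, adjusted p = 0.0682) or without BS53965 (-5.54, adjusted p = 0.0731). Without both shallow lines the difference in Tg was -7.85. Tshr was no longer called without B52482, where the difference was -1.39 (adjusted p = 0.615), nor without BS53736 (-7.77, adjusted p = 0.0969), BS53958 (-5.66, adjusted p = 0.138) or BS53965 (-6.35, adjusted p = 0.101). Without both shallow lines the difference in Tshr was -5.57. The difference in Tshr thus depended on 1 Braf line, whereas that in Lrp2 and Tg stayed at -5.33 or lower under each of these omissions.

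**Figure D3:**
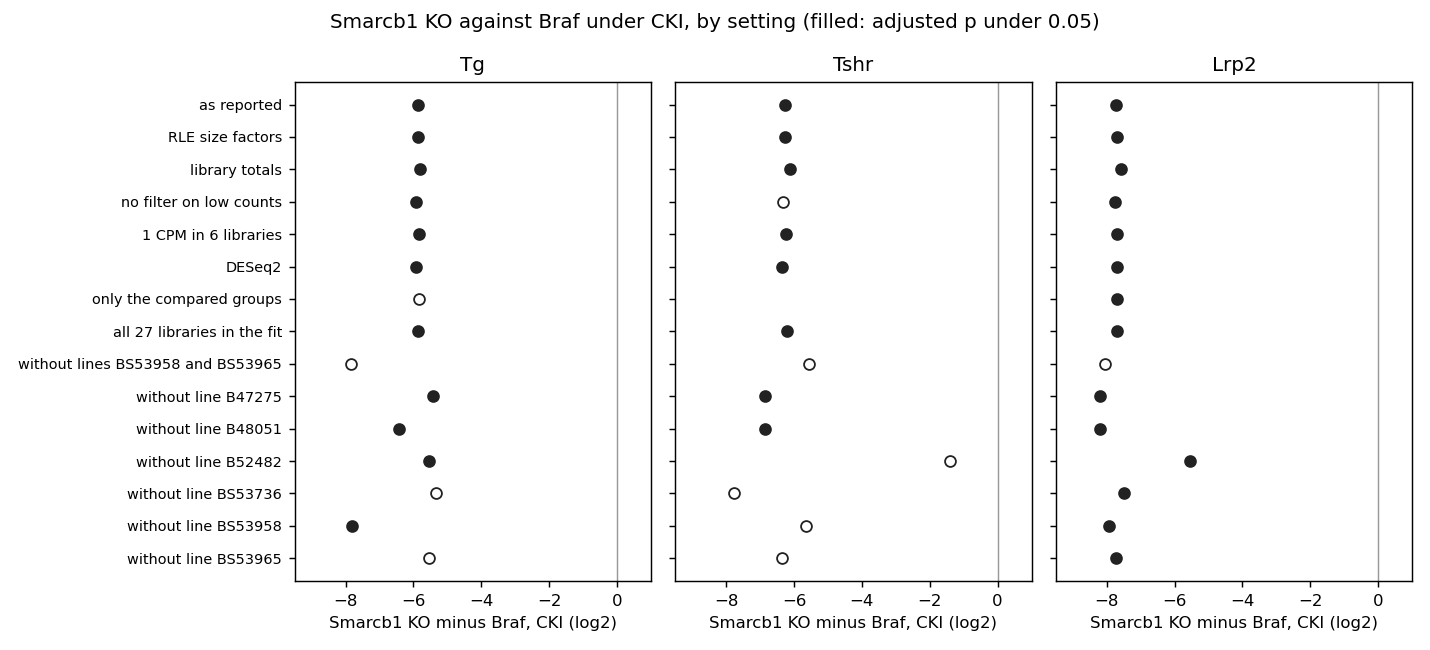
Log2 difference of Smarcb1 KO minus Braf lines under CKI for each gene (x axis) under each processing setting (rows), filled where the adjusted p is under 0.05; Tshr was filtered out, and has no value, where the fit held just these 2 groups. Lrp2 is filled in all rows but that without both shallow lines, and Tshr lies at -1.39 without B52482. The row without both shallow lines holds BS53736 as the sole Smarcb1 KO line.

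Arid1a KO and Arid2 KO lines under CKI gave no call for the 3 genes. Against Braf, the log2 difference in Arid1a KO was 0.08 ± 1.32 for Tg (adjusted p = 0.989), 2.05 ± 1.61 for Tshr (adjusted p = 0.613) and -2.21 ± 1.20 for Lrp2 (adjusted p = 0.419), with 0.736% of genes passing. In Arid2 KO it was 0.43 ± 1.32 for Tg (adjusted p = 0.956), -0.02 ± 1.56 for Tshr (adjusted p = 1.0) and -0.98 ± 1.16 for Lrp2 (adjusted p = 0.843), with 0.064% of genes passing. Standard errors above 1 on the log2 scale leave room for differences of several fold in either direction. Removing B52482 moved the Tshr difference to 4.88 in Arid2 KO and to 6.93 in Arid1a KO, and neither was called.

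In vehicle, where all 3 genes were low, the test gave no call for a KO group against Braf. Tshr had 10 counts or more in 2 and Lrp2 in 3 of the 12 vehicle libraries, so both were carried through the filter by CKI libraries. With just the compared groups in the fit, Tshr was filtered out of all 3 vehicle comparisons and Lrp2 out of 2, and the lack of a call says little about these genes. In Smarcb1 KO the log2 difference was -2.44 ± 1.51 for Tg (adjusted p = 0.273), -1.06 ± 2.02 for Tshr (adjusted p = 0.755) and -2.83 ± 1.51 for Lrp2 (adjusted p = 0.197), and 18.1% of genes passed. In Arid1a KO it was 0.85 ± 1.37, 1.48 ± 1.80 and -2.67 ± 1.49 for Tg, Tshr and Lrp2, and 3.63% of genes passed. In Arid2 KO it was 1.46 ± 1.38, 1.02 ± 1.81 and 0.54 ± 1.24, and 0.0512% passed. By their libraries, Tg and Lrp2 in Smarcb1 KO and Lrp2 in Arid1a KO lay wholly below Braf, as did 17.3% and 12.3% of all genes in those comparisons. Whether the response to CKI itself differed between genotypes was not tested.

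**Figure D4:**
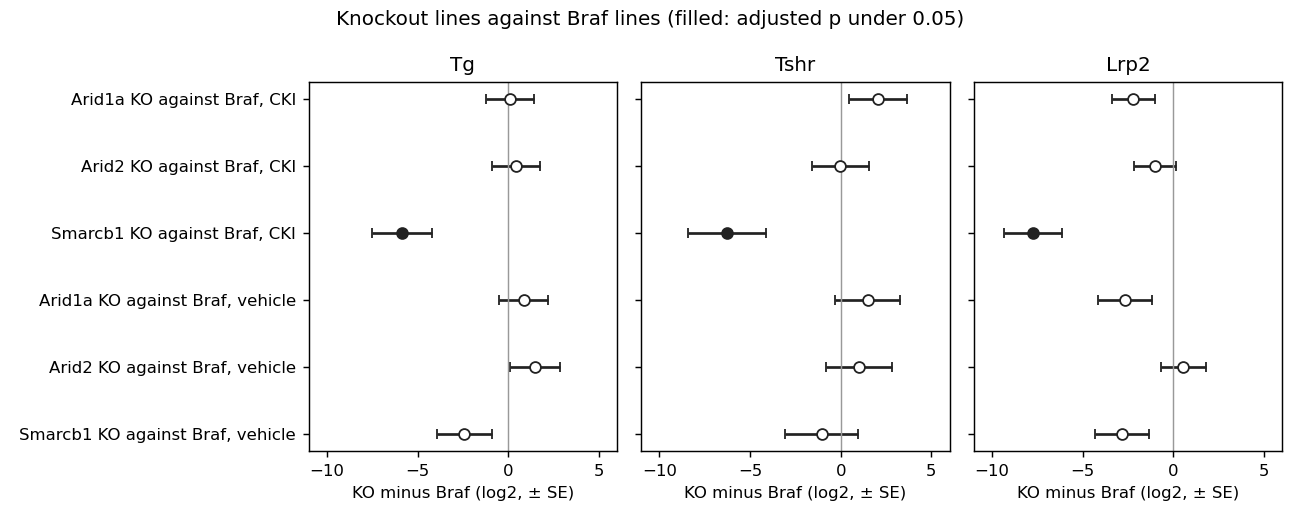
Fitted log2 difference of each KO group minus Braf lines, CKI rows above vehicle rows, with bars of 1 SE and filled points where the adjusted p is under 0.05. Only the Smarcb1 KO rows under CKI are filled, at -5.86, -6.27 and -7.71.

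Against wildtype libraries the 3 genes separated. The mean of Tg under CKI was 0.0661% of the wildtype mean in Arid1a KO, 0.0849% in Arid2 KO, 0.00103% in Smarcb1 KO and 0.0627% in Braf lines, where the wildtype libraries had 277400, 226300 and 344500 CPM. The tumor line with the most Tg, AB51189 under CKI, held 0.221% of the wildtype mean. Tg was called lower in Braf lines under CKI than in wildtype, by a log2 difference of -10.64 ± 1.91 (adjusted p = 0.000232, edgeR), in a comparison where 41.0% of genes passed and 19.8% were lower.

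The mean of Tshr under CKI was 59.9% of that in wildtype (103.9, 89.0 and 169.3 CPM) in Arid1a KO, 14.4% in Arid2 KO, 0.184% in Smarcb1 KO and 14.5% in Braf lines, and Arid1a KO line BA45198 reached 144.7%. The other Arid1a KO lines, BA47473 and BA49112, were at 11.4% and 23.7%. Braf lines under CKI differed from wildtype in Tshr by -2.79 ± 1.54 (adjusted p = 0.154), and by -7.68 (adjusted p = 0.00523) without B52482. The mean of Lrp2 under CKI was 29.0% of that in wildtype (124.7, 102.3 and 180.4 CPM) in Arid1a KO, 67.6% in Arid2 KO, 0.653% in Smarcb1 KO and 133.8% in Braf lines, where B52482 reached 342.5% and the other lines stayed under the wildtype range. By line, Lrp2 was at 36.1%, 8.92% and 157.8% in Arid2 KO and at 64.6%, 6.08% and 16.4% in Arid1a KO. The Lrp2 difference of Braf under CKI from wildtype was 0.42 ± 1.08 (adjusted p = 0.780) and turned to -1.76 (adjusted p = 0.243) without B52482. In vehicle, Braf lines were below wildtype by -16.28 ± 2.27 for Tg, -8.80 ± 2.08 for Tshr and -6.90 ± 1.42 for Lrp2 (adjusted p = 1.72e-05, 0.00203 and 0.000668), and 46.5% of genes passed. Tshr had 5, 2 and 9 counts in these vehicle libraries, so it passed the filter through other groups. The Braf libraries of both arms enter the CKI minus vehicle change that chose the 3 genes. The adjusted p values against wildtype are therefore not independent of that choice.

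The wildtype libraries also held other cell types. The summed level of 7 adipocyte markers was 2.67 to 11.6 CPM in tumor line libraries, against 1063 to 3364 CPM in wildtype, and that of 5 C cell markers was at most 32.0 CPM in tumor lines, against 2430 to 4285 CPM in wildtype. Summed leukocyte markers (8 genes) were at most 18.6 CPM in tumor lines and 269.1 to 432.3 CPM in wildtype, and parathyroid markers (3 genes) at most 0.461 CPM in tumor lines and 69.4 to 1985 CPM in wildtype. Endothelial markers (6 genes) summed to at most 6.46 CPM in tumor lines other than Smarcb1 KO, where they reached 57.3 CPM under CKI and 666.1 CPM in vehicle, and to 472.1 to 707.9 CPM in wildtype. Their part in the differences from wildtype was not tested.

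Most other genes of hormone synthesis stayed low in the tumor lines under CKI. Slc5a5, the sodium iodide symporter, was at most 0.891 CPM in every tumor line under CKI, against 120.4, 415.6 and 227.0 CPM in wildtype. Iyd, which recovers iodide, was at most 0.302 CPM and Dio1, a deiodinase, at most 0.636 CPM under CKI, against means of 867.9 and 646.9 CPM in wildtype. Slc26a7, an anion transporter, reached 13.9 CPM in B47275 and 5.01 CPM in BA47473 under CKI, against a wildtype mean of 1193 CPM. Of 13 listed synthesis genes, 7 could be tested among tumor lines and none was called higher under CKI in any genotype, although Dio2, a deiodinase, was called higher in Arid1a KO with the line as a block (2.99 ± 0.95, adjusted p = 0.0368). Kcnq1, a potassium channel gene, was called lower in Arid1a KO (log2 change -7.96 ± 1.72, adjusted p = 0.00724), and 4 of the 7 (Ano1, Duox1, Kcnq1 and Dio2) were lower in Smarcb1 KO than in Braf lines under CKI, where 13.1% of all genes were lower. Kcnq1 alone of these was also called lower in Smarcb1 KO than in Braf lines in vehicle (-6.65, adjusted p = 0.0098). Against wildtype, 8 of 11 tested synthesis genes were lower in Braf lines under CKI and none higher, where 19.8% of all genes were lower. Over all genes, edgeR called 13.9% of genes in Arid1a KO, 0.141% in Arid2 KO, 0.032% in Smarcb1 KO and 0.0% in Braf for CKI against vehicle, and with the line as a block 32.3%, 6.27%, 1.06% and 2.48% in that order. In Braf 1744 genes had an unadjusted p under 0.05, and DESeq2 called 316.

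**Figure D5:**
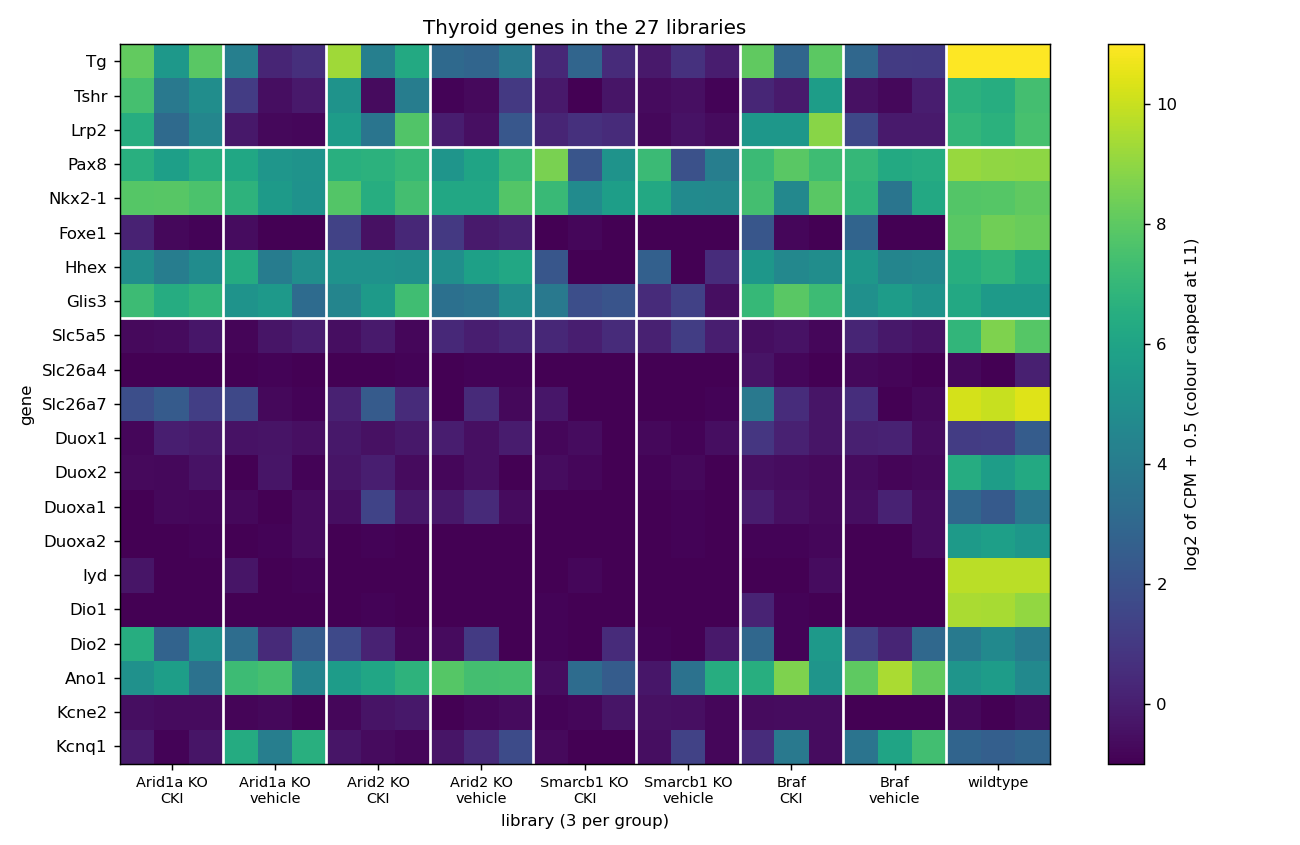
Heat map of log2 of CPM + 0.5 for Tg, Tshr and Lrp2 (top block), 5 thyroid transcription factors (middle) and genes of hormone synthesis (bottom) in the 27 libraries, 3 per group; the colour is capped at 11, which wildtype Tg exceeds. Slc5a5, Iyd and Dio1 are dark in all tumor line libraries, while Pax8 and Nkx2-1 are present in all groups.

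Pax8 and Nkx2-1, transcription factors of the thyroid lineage, were above 1 CPM in every CKI library, while Hhex, a homeobox factor, had 4.06, 0 and 0 CPM in Smarcb1 KO and 40.1, 23.9 and 28.9 CPM in Braf lines under CKI. Pax8 had 94.5, 53.4 and 87.6 CPM in Arid1a KO, 95.9, 104.0 and 129.3 CPM in Arid2 KO, 378.8, 4.03 and 35.1 CPM in Smarcb1 KO and 145.7, 244.2 and 153.8 CPM in Braf lines under CKI, against 575.4, 522.7 and 498.6 CPM in wildtype. BS53736, with the most Pax8 of all tumor libraries, held 0.779 CPM of Tg and 0.697 CPM of Lrp2 in the same library. Foxe1, a forkhead factor of the thyroid, was at most 4.10 CPM under CKI, against 244.4, 339.6 and 302.1 CPM in wildtype. Under CKI, Glis3 and Hhex were lower in Smarcb1 KO than in Braf lines, at a log2 of -4.59 ± 0.89 (adjusted p = 0.00247) and -4.29 ± 1.26 (adjusted p = 0.0233), and the other 3 of 5 factors were not called, where 13.1% of all genes were lower. The list's median difference was -4.29, against -0.05 over all genes. Glis3 and Hhex were also lower in Smarcb1 KO than in Braf lines in vehicle, by -5.22 and -3.63 (adjusted p = 0.00158 and 0.0451). Nkx2-1 and Glis3 were called higher under CKI than vehicle in Arid1a KO with the line as a block, by 1.99 ± 0.41 (adjusted p = 0.00525) and 2.25 ± 0.61 (adjusted p = 0.0188), and without the block neither was called. With the block, 32.3% of all genes were called there.

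Downstream of the TSH receptor, the phosphodiesterase genes Pde4b and Pde4d, which break down cyclic AMP and are known targets of it, were higher under CKI in Arid1a KO lines. Pde4b had 217.4, 100.6 and 85.7 CPM under CKI, against 8.98, 0.897 and 1.07 CPM in vehicle, a log2 change of 5.22 ± 0.98 (adjusted p = 0.00373). Pde4d had 237.0, 40.5 and 50.2 CPM under CKI, against 4.65, 0.942 and 1.66 CPM in vehicle, a log2 change of 5.51 ± 1.18 (adjusted p = 0.00701). For both genes every CKI library was above every vehicle library, as for 23.8% of all genes in Arid1a KO. The rise was not limited to Arid1a KO. Without a call, Pde4b changed by 3.61 in Arid2 KO, 1.05 in Smarcb1 KO and 2.66 in Braf, and Pde4d by 4.12, 2.22 and 1.63. Crem, a cyclic AMP responsive regulator, and Gnaq, a G protein subunit, also rose in Arid1a KO, by 1.94 ± 0.45 (adjusted p = 0.0104) and 1.10 ± 0.24 (adjusted p = 0.00731). In all, 4 of 20 tested genes of TSH receptor signalling were higher and 1 lower in Arid1a KO, where 13.9% of all genes were called, with a median change of 0.38, against 0.02 over all genes. None of the 20 was called in the other genotypes, and with the line as a block 8 were higher and 4 lower in Arid1a KO, 4 and 1 in Arid2 KO, 0 and 0 in Smarcb1 KO, and 1 and 1 in Braf. The share of all genes called with the block was 32.3%, 6.27%, 1.06% and 2.48% in the same order.

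Pde4b in Smarcb1 KO lines was at 0.123, 0 and 0 CPM under CKI, against 27.9, 16.6 and 127.6 CPM in Braf lines under CKI. It was lower, at a log2 of -9.59 ± 1.36 (adjusted p = 0.000282), together with Rapgef3, a cyclic AMP sensor, by -4.86 ± 0.71 (adjusted p = 0.000354) and Adcy9, an adenylyl cyclase, by -1.97 ± 0.52 (adjusted p = 0.0132). Arrb2, an arrestin, was higher by 1.04 ± 0.18 (adjusted p = 0.00142). These genes already differed the same way in vehicle. There Pde4b, Rapgef3, Adcy9 and Arrb2 differed by -7.97, -6.24, -2.5 and 0.89 (adjusted p = 9e-04, 9.43e-05, 0.00458 and 0.00419). Under CKI 6 of the 20 signalling genes were lower and 1 higher, with a median of -0.43, where 23.1% of all genes were called and 13.1% were lower.

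Of the genes that work with megalin, Vdr, the vitamin D receptor, and Lrpap1, the chaperone of LDL receptor family proteins, were higher in Arid1a KO lines under CKI. Vdr had 332.9, 94.9 and 261.3 CPM under CKI, against 12.9, 2.11 and 2.18 CPM in vehicle, a log2 change of 5.34 ± 1.26 (adjusted p = 0.0117). Lrpap1 had 436.7, 196.0 and 382.0 CPM under CKI, against 188.3, 106.9 and 84.0 CPM in vehicle, a log2 change of 1.44 ± 0.47 (adjusted p = 0.0481). Gipc1, an adaptor, was lower, at a log2 of -0.88 ± 0.26 (adjusted p = 0.0324), and 11 of 14 tested genes were not called, where 13.9% of all genes were. In Smarcb1 KO against Braf under CKI, 4 of the 14 were lower and none higher, namely Clcn5, Vdr, Tcn2 and Lrpap1, by -1.53, -7.58, -2.95 and -1.60 (adjusted p = 0.00236, 0.00275, 0.0159 and 0.0227), and the list's median was -1.08, where 13.1% of all genes were lower. Clcn5, Vdr and Tcn2 were already lower in Smarcb1 KO than in Braf lines in vehicle, by -1.09, -4.41 and -2.78 (adjusted p = 0.0162, 0.0298 and 0.0237). Lrpap1 was not called there (-1.08, adjusted p = 0.109). Cubn, the gene of the partner receptor cubilin, stayed between 1.27 and 7.62 CPM in all CKI libraries.

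Among 9 tested relatives of Lrp2 in the LDL receptor family, Lrp6, a Wnt coreceptor, was higher under CKI in Arid1a KO by 1.77 ± 0.39 (adjusted p = 0.00805) and the other 8 were not called, a share near the 13.9% of all genes called. With the line as a block Lrp4 was called higher in Arid1a KO, Arid2 KO and Braf, by 1.55, 1.98 and 1.79 (adjusted p = 0.011, 0.0185 and 0.036). The share of all genes called with the block was 32.3%, 6.27% and 2.48% in the same order. In Smarcb1 KO against Braf under CKI, Lrp10 and Lrp6 were lower, by -1.29 and -1.42 (adjusted p = 0.0014 and 0.0161), which is 2 of 9, where 13.1% of all genes were lower. Lrp10 was already lower there in vehicle (-1.43, adjusted p = 0.000755), and Lrp6 was not called (-0.91, adjusted p = 0.102). Of 9 listed relatives of Tshr, 4 could be tested, namely the receptors Lgr4, Lgr5 and Lgr6 and the hormone subunit gene Gpha2. Lgr4 and Lgr5, receptors for R-spondins, were the 2 called higher under CKI in Arid1a KO, where 13.9% of all genes were called. They were also the 2 called lower in Smarcb1 KO against Braf under CKI, where 13.1% of all genes were lower. Lgr5 was already lower there in vehicle (-6.71, adjusted p = 0.00832). The pair Lgr4 and Lgr5 was named after its values were seen. Lgr6 went the other way in Arid1a KO, without a call (-6.43 ± 2.26, adjusted p = 0.0645). The log2 change in Arid1a KO was 2.42 ± 0.59 for Lgr4 (adjusted p = 0.0133) and 7.47 ± 1.57 for Lgr5 (adjusted p = 0.00647). In vehicle, Lgr5 was already lower in Arid1a KO than in Braf lines (-5.45, adjusted p = 0.0445). Lgr4 was not called there (0.10, adjusted p = 0.954).

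Genes that fold or break down thyroglobulin moved both ways. In Arid1a KO under CKI, Sort1, a sorting receptor, and Lgmn, a lysosomal protease, were higher by 2.59 ± 0.60 (adjusted p = 0.0109) and 2.03 ± 0.57 (adjusted p = 0.0273), while Ero1l, an oxidase of the endoplasmic reticulum, and Hspa5, its main chaperone, were lower, at a log2 of -1.88 ± 0.48 (adjusted p = 0.0167) and -1.10 ± 0.34 (adjusted p = 0.0381). The other 15 of 19 tested genes were not called, where 13.9% of all genes were. In vehicle, Sort1 was lower in Arid1a KO than in Braf lines (-3.32, adjusted p = 0.00952), while Lgmn, Ero1l and Hspa5 were not called. In Smarcb1 KO against Braf under CKI 6 of 19 were lower and none higher, where 13.1% of all genes were lower, among them the cathepsin genes Ctsd and Ctsb, by -2.01 ± 0.39 (adjusted p = 0.00263) and -2.19 ± 0.54 (adjusted p = 0.00964). Both cathepsin genes were also lower in vehicle, by -1.99 and -1.67 (adjusted p = 0.00301 and 0.0361).

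Genes driven by MAPK output were followed in the same libraries. Over 20 such genes the median log2 change per line lay between -1.43 and -1.07 in Arid1a KO, between -1.09 and -0.78 in Arid2 KO, between -1.02 and -0.33 in Smarcb1 KO and between -1.05 and -0.39 in Braf lines. The part of MAPK output in the levels of the 3 genes was not tested. In Arid1a KO, where 13.9% of all genes were called, 9 of the 20 were called lower and 2 higher, with Spred3, Etv4, Spry4 and Etv5, feedback regulators and transcription factors of the pathway, lower, at a log2 of -1.59, -3.86, -3.10 and -1.53 (adjusted p = 0.00141, 0.00583, 0.00617 and 0.0118). None was called in the other genotypes, and with the line as a block 7 were lower in Arid2 KO, 0 in Smarcb1 KO and 4 in Braf, where 6.27%, 1.06% and 2.48% of all genes were called. Dusp4, a MAPK phosphatase, was lower with the block, by -2.59 in Arid1a KO, by -2.29 in Arid2 KO and by -2.48 in Braf (adjusted p = 8.43e-05, 0.000843 and 0.000826), and in Smarcb1 KO its change without the block was -0.16 (adjusted p = 0.994). In Arid1a KO 32.3% of all genes were called with the block. In vehicle, Spry4 was higher in Arid1a KO than in Braf lines (2.80, adjusted p = 0.0251), while Spred3, Etv4 and Etv5 were not called.

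Epithelial and fibroblast markers also varied with arm and line. The summed level of 8 fibroblast markers was 2137 to 7049 CPM under CKI and 1354 to 3720 CPM in vehicle in Arid1a KO, and 587.3 to 1334 CPM under CKI and 21.8 to 67.3 CPM in vehicle in Arid2 KO. In Smarcb1 KO it was 15.1 to 119.3 CPM under CKI and 6.60 to 667.3 CPM in vehicle, and in Braf 21.9 to 2135 CPM under CKI and 5.46 to 243.1 CPM in vehicle. The sum of 12 epithelial markers was 10.7 to 20.4 CPM under CKI and 317.3 to 337.8 CPM in vehicle in Arid1a KO, and 218.3 to 9261 CPM under CKI and 1354 to 7883 CPM in vehicle in Braf. It was 85.8 to 211.6 CPM under CKI and 85.0 to 922.8 CPM in vehicle in Arid2 KO, and 2.08 to 266.6 CPM under CKI and 0.603 to 271.1 CPM in vehicle in Smarcb1 KO. Of 5 thyroid follicular markers, 2 to 4 exceeded 1 CPM in tumor line libraries and 5 in wildtype. Kidney tubule markers (5 genes) summed to at most 18.3 CPM under CKI and 300.7 CPM in vehicle. No library held more than 1 of these 5 genes at 1 CPM, so the high sums rest on 1 gene. The part of these markers in the results was not tested.

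Across the 24 tumor line libraries the log2 levels of the 3 genes were correlated with each other, with Pearson r of 0.817 for Tg and Tshr, 0.854 for Tg and Lrp2 and 0.780 for Tshr and Lrp2. Over the 12 changes per line r was 0.777, 0.654 and 0.749 in the same order. These are descriptions, since the points share lines and arms and all 3 genes were chosen for a rise under CKI. Among 15633 genes ranked by r with Tg, Lrp2 was at 33 and Tshr at 110 by level. By change they were at 1038 and 231. The genes most alike by level over the 24 libraries were Zhx2, Smad9, Igf1, Tm2d2 and Mapk10 for Tg (r between 0.894 and 0.925), Tll2, Dact1, Ces1d, Maob and Ppp1r3c for Tshr (0.932 to 0.958), and Magi3, Greb1l, Lgr4, Nckap5 and Gm13293 for Lrp2 (0.906 to 0.925). By change over the 12 lines they were Cxcl12, H2-M5, Rsbn1, Ptprd and Rasl11a for Tg (0.917 to 0.942), Sytl5, Cebpd, Fuk, Eid2b and Ces1d for Tshr (0.947 to 0.966), and Ell2, Npr3, Gm16880, Zbtb3 and Ankrd44 for Lrp2 (0.891 to 0.928). Ces1d, a carboxylesterase gene, was in both sets for Tshr.

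Ordered by group mean, Tg was highest in wildtype and lowest in Smarcb1 KO vehicle, and wildtype was the one step in that order where neighbouring groups did not overlap. For Tshr every neighbouring pair of groups overlapped. For Lrp2 neighbours did not overlap between Arid1a KO under CKI (39.4 ± 42.4 CPM) and Arid2 KO in vehicle (1.64 ± 2.25 CPM), nor between Smarcb1 KO under CKI (0.886 ± 0.187 CPM) and Arid1a KO in vehicle (0.179 ± 0.158 CPM). In GENCODE vM21 the exons of Tg overlap an antisense gene, Gm17140, which averaged at most 0.0154 CPM in any tumor group and 0.966 CPM in wildtype, and no overlapping gene was found for Lrp2. No source used here gives the strand setting, so reads of Tg and Gm17140 cannot be told apart.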

How the data were processed

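The authors deposited raw counts, 1 column per library and 1 row per gene symbol. Per the submitters' processing notes, mm9, STAR 2.4, HTSeq 0.6.1 and DESeq2 were used, without a role or order. The gene models, the strand setting and any filter are not stated in these sources. From the counts, levels (CPM) and log2 changes were computed in R 4.3.3 with edgeR 4.0.16 (limma 3.58.1): filterByExpr by group, TMM scaling and the quasi-likelihood F test, and calls were made at 0.05 after Benjamini-Hochberg adjustment across the genes tested. Standard errors were derived from F and are approximate. Comparisons among tumor lines used 24 libraries, and those with wildtype used 27. Ratios of low counts have exact 95% intervals that cover counting error only.

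Alternatives were other size factors, other filters or none, DESeq2 1.42.0, fewer or more groups in the fit, pseudocounts of 0.1 and 2.0 in place of 0.5, lines left out, both shallow lines left out, and the line as a block. Vehicle and CKI libraries are paired by the line named in both labels, and their deviations from the group means correlated between 0.251 and 0.782 in all 12 lines. The fit was run on simulated data drawn without an effect of the line. That simulation cannot check how the fit without a block handles paired libraries. The 3 genes and all gene lists (hormone synthesis, thyroid factors, TSH receptor signalling and relatives, megalin endocytosis, LDL receptor family, thyroglobulin folding and breakdown, MAPK output, cell type markers) were chosen with earlier results of these data known. Named genes are the 3 genes, the targeted genes, up to 4 called members per list and comparison with the smallest adjusted p, genes used to check the tissue, and the 5 most alike by Pearson r. A gene of the synthesis and follicular marker lists is not reported here and was left out of both.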

Additional observations from a re-analysis of the deposited data

Results flagged for a closer look

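Lrp12, a relative of Lrp2 in the LDL receptor family, was picked out because its CKI minus vehicle change went opposite ways in every line of 2 genotypes. The mean log2 change was 0.143 in Smarcb1 KO lines and -0.693 in Arid1a KO lines, a gap of 0.836. The difference was not tested.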

How the results depend on the processing

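Low counts limit the precision of the Smarcb1 KO values under CKI, and depth adds to this in the shallow BS53958 and BS53965, where Tshr had 0 and 1 counts. Of the tested values of the 3 genes, 162 under other settings and 124 with a line left out kept their direction and their side of the threshold. Values that stayed uncalled are among those kept. Under other settings 1 reversed and 5 lost the call, some of these with BS53736 as the sole Smarcb1 KO line. With a line left out 13 reversed, 6 lost the call and 1 gained it. In what follows the cause of each change was not tested.

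For Smarcb1 KO against Braf under CKI, Tg was -5.84 (adjusted p = 0.0939) with these groups alone in the fit, and Tshr was -6.31 (adjusted p = 0.0539) without a filter. Without BS53958 and BS53965, with BS53736 as the sole Smarcb1 KO line, the values were -7.85 for Tg, -5.57 for Tshr and -8.04 for Lrp2. With 1 line left out they lay between -7.80 and -5.33 for Tg and between -7.77 and -1.39 for Tshr. For Arid2 KO against Braf under CKI, Tshr was 0.032 on library totals, and with 1 line left out Tg lay between -1.90 and 0.971, Tshr between -1.08 and 4.88 and Lrp2 between -2.58 and 1.21. Tg in Arid1a KO against Braf lay between -0.488 and 0.556 under CKI and between -2.06 and 1.998 in vehicle. In Arid2 KO against Braf in vehicle, Tshr lay between -1.57 and 1.65 and Lrp2 between -1.69 and 2.0. For Braf under CKI against wildtype, Tshr lay between -7.68 and -2.22 and Lrp2 between -1.76 and 0.898.

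For CKI against vehicle, which carries no test for these genes, leaving out 1 line gave 1.75 to 6.49 for Tshr in Braf, 4.14 to 7.37 for Tg in Arid1a KO, and in Smarcb1 KO 0.909 to 2.46 for Tg, -0.621 to 1.87 for Tshr and 2.32 to 2.68 for Lrp2. Without BS53958 and BS53965 the Smarcb1 KO values were 1.04 for Tg and 2.82 for Lrp2, and Lrp2 was 2.54 on library totals and 2.55 with DESeq2. With the line as a replicate block, Tg was 5.81, 3.18, 1.86 and 5.01 in Arid1a KO, Arid2 KO, Smarcb1 KO and Braf, Tshr 6.43, 4.70, 0.536 and 4.56, and Lrp2 7.64, 6.01, 2.47 and 6.61.

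Counts of called genes depended more on the setting. Under CKI against vehicle they were 2177 in Arid1a KO (DESeq2 3408, block 5053, these groups alone 3509), 22 in Arid2 KO (584, 981 and 0), 5 in Smarcb1 KO (305, 165 and 0) and 0 in Braf (DESeq2 316, block 388), where 1744 genes had an unadjusted p under 0.05. Against Braf in vehicle they were 567 in Arid1a KO (DESeq2 1571, these groups alone 24), 8 in Arid2 KO (601 and 0) and 2837 in Smarcb1 KO (785 with these groups alone). Against Braf under CKI they were 115 in Arid1a KO (984 and 5), 10 in Arid2 KO (444 and 0) and 3618 in Smarcb1 KO (521 with these groups alone). With these groups alone Tshr was filtered out in 6 comparisons and Lrp2 in 2, and gave no value there.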

Other observations

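Dab2, an endocytic adaptor that binds the tail of megalin, was singled out after its values were seen. It had 645.5, 415.1 and 612.1 CPM in Arid1a KO, 307.2, 38.7 and 257.3 CPM in Arid2 KO, 15.5, 31.9 and 69.8 CPM in Smarcb1 KO and 29.8, 38.9 and 575.9 CPM in Braf lines under CKI. In vehicle it had 56.7, 94.5 and 55.4 CPM in Arid1a KO, 62.3, 99.5 and 120.0 CPM in Arid2 KO, 16.3, 25.3 and 61.2 CPM in Smarcb1 KO and 13.3, 10.9 and 50.4 CPM in Braf lines. The 6 CKI libraries with more than 250 CPM of Dab2 are those with more than 10 CPM of Tshr. Both cutoffs were set with the values in view, so nothing is read from this match. Under CKI against vehicle, Dab2 was not called in Arid1a KO (3.04 ± 1.01, adjusted p = 0.0526). Over the 24 tumor line libraries the log2 level of Dab2 had a Pearson r of 0.864 with Tshr, 0.696 with Tg and 0.626 with Lrp2, ranking 42, 676 and 1142 of 15633 genes, as a description without a test.

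Dio2, the deiodinase that makes active hormone inside cells and a known target of cyclic AMP, was also singled out after its values were seen. It had 88.1, 6.59 and 33.0 CPM in Arid1a KO lines under CKI, against 9.14, 0.852 and 5.04 CPM in vehicle, and 7.56, 0.0417 and 44.9 CPM in Braf lines under CKI, against 1.94, 0.670 and 7.69 CPM in vehicle. In Arid2 KO lines it had 2.68, 0.626 and 0.0858 CPM under CKI, against 0.132, 1.58 and 0 CPM in vehicle, and in Smarcb1 KO lines at most 0.891 CPM under CKI and 0.388 CPM in vehicle.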
